A study of Caenorhabditis elegans with 205 samples.

Results

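ASI is a bilateral pair of chemosensory neurons in the amphid, the main sense organ of the head of the nematode Caenorhabditis elegans. It is represented here by 4 libraries, the count columns named ASIr152, ASIr153, ASIr154 and ASIr155, and is set against all libraries of 52 other neuron classes. The labels name a library kit for 180 libraries, those of ASI included, and none for the 25 others. The study profiled total RNA of neurons of 53 classes, each isolated by fluorescence-activated cell sorting, in which cells carrying a fluorescent reporter are separated from a suspension of dissociated worms. Every library, of ASI and of the other classes, is labelled as untreated and comes from worms grown on 8P nutrient agar with the Escherichia coli strain NA22. The strain, its reporter transgene, the stage and sex of the animals and the number of cells sorted are not given in the sources used here. A narrower comparison used 37 libraries of 9 other amphid classes, which are ADL, AFD, ASEL, ASER, ASG, ASK, AWA, AWB and AWC. Nothing in the labels says that libraries of a class came from separate cultures, so p-values measure only the spread between libraries. In bulk samples such as these, fewer cells of a type and less RNA per cell cannot be told apart.

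ASI neurons have ciliated endings that open to the outside through the amphid pore. They are known as regulators of the dauer larva, a long-lived arrested stage that forms under crowding and lack of food. In favourable conditions ASI secretes the TGF-beta family ligand DAF-7 and insulin-like peptides, which act on receptors elsewhere in the body to promote reproductive growth, and its G protein-coupled receptors detect the ascaroside pheromones that signal crowding. The same neurons are known for roles in feeding state, thermotolerance and lifespan under dietary restriction.

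The ASI libraries held 4006941, 5956400, 1193796 and 10341529 counts in ASIr152 to ASIr155, within the range of the other libraries (798303 to 24647021). A count of 3, taken as the limit that a count of 0 allows, corresponded to 0.694, 0.580, 3.32 and 0.204 CPM (counts scaled to a common library size) in these libraries, and such limits cover counting error only. ASIr154 stood apart. It had 7292 genes with a count, fewer than any other library, against 18375, 18055 and 21013 in the other ASI libraries, and its highest correlation with any library was 0.791 (Pearson r of log2(CPM + 1) across genes), against 0.925 to 0.942 for the other 3. The library nearest to ASIr152 was of IL1 and the one nearest to ASIr155 was of AWC, whereas ASIr153 was nearest to ASIr155. Summed CPM of 8 neuron markers ran from 1687 in ASIr152 to 3607 in ASIr153, below the median of 5612 over the other libraries, and the class ranked 41 of 53 by this sum. The sum of the non-neuronal marker lists ran from 1909.5 to 5689 CPM in ASI and had a median of 3103 CPM in the other libraries. It includes the hypodermis marker rol-6, described below with genes used in transgenes. The hypodermis sum averaged 1491.5 CPM in ASI, rank 3 of 53 by class median. Without rol-6 it averaged 243.2 CPM, rank 33, against a median of 289.9 CPM in the other libraries. ASIr153, with the highest neuron sum, gave the highest of the 4 values for 27 of the 35 genes described below as highest in ASI. The part of this difference between libraries in the results was not tested. Except for egl-21 and sbt-1, calls described below that end when 1 library is left out are named with that library.

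daf-7, the gene of the TGF-beta ligand and the defining marker of ASI, was high in all 4 libraries. It reached 6476, 20496, 13764 and 3669.8 CPM in ASIr152 to ASIr155, a mean of 11101.5 ± 7571 CPM (SD, n = 4), and 12439 to 106038 counts lay behind these values. The next classes were ASG, with 2243 ± 1126 CPM (n = 4), ASK with 1208 ± 498 CPM (n = 4) and ASER with 368 ± 74.6 CPM (n = 4). The lowest ASI library (3669.8 CPM) lay just below the highest ASG library (3782 CPM), so the ranges of ASI and ASG touched, and no library of any other class reached the lowest ASI value. The median of the other 52 class means was 23.01 CPM. Set against the mean of those 52 class levels, each class weighted equally, the log2 fold change was 8.77 ± 0.24 (SE, edgeR quasi-likelihood test, adjusted p = 2.12e-75), and against the 9 amphid classes it was 6.26 ± 0.39 (adjusted p = 1.43e-31).

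Of the other ASI markers, gpa-4 encodes a G protein alpha subunit and had 92.0, 529, 146.06 and 103.6 CPM in ASI. Its mean of 217.6 ± 208.7 CPM was second to the 230.9 ± 158.45 CPM of AWA (n = 4 each), which did not differ beyond the spread of either class, and the log2 fold change against 52 classes was 7.56 ± 0.22 (adjusted p = 4.36e-72). The chemoreceptor gene str-3 stayed near the detection limit, with 0.925, 2.32, 0 and 0.678 CPM in ASI, against 27.98 ± 14.6 CPM in AFD (n = 5). Although edgeR called it higher (log2 fold change 4.68), DESeq2 did not (adjusted p = 0.767). Of 22 markers of the 8 other amphid types, 5 were called higher against the 52 classes, and each of the 5 had a lower mean in ASI than in its highest class. che-1 of the ASE pair, str-1 of AWB and ops-1 of ASG had no count in any ASI library, while gcy-15, the other ASG marker, was called higher at up to 17.98 CPM, as described below. Of the 4 AFD markers, none of which was called higher, gcy-8 had at most 1.49 CPM and ttx-1 had 11.6, 2.90, 14.4 and 5.49 CPM in ASI, against 1742 CPM in AFD. The odr-10 receptor gene of AWA had at most 11.4 CPM in ASI and averaged 4152 CPM in AWA. srh-220, 1 of 2 ADL markers, had a count in ASIr155 alone (0.271 CPM, against 20.07 CPM in ADL), and its call (1.48) changed sign without that library (-1.20, adjusted p = 1). Of the 3 AWC markers, the homeobox gene ceh-36 had 2.54, 4.64, 4.43 and 8.55 CPM in ASI (AWC mean 347.5 CPM), the receptor gene str-2 had at most 2.17 CPM, in ASIr155, and the cyclase gene odr-1 had 4.86, 27.6, 27.7 and 4.82 CPM. All 3 were called higher against the 52 classes, the call of ceh-36 was lost without ASIr155 (adjusted p = 0.0541), and that of str-2 was not made by DESeq2 (adjusted p = 0.795). None of the 6 markers of ASJ, ASH and ADF, amphid classes that are not among the 53, was called by edgeR, DESeq2 or limma-voom in either comparison, or had an unadjusted edgeR p under 0.05.

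**Figure D1:**
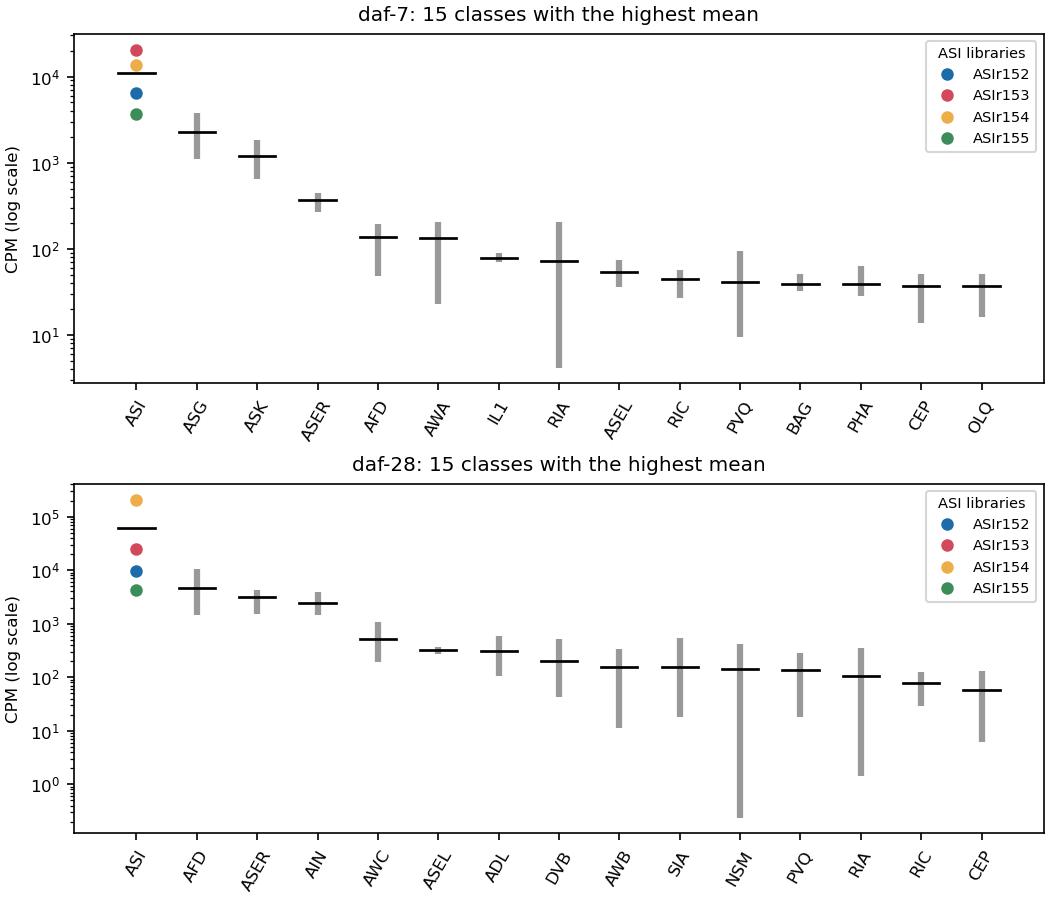
CPM of daf-7 (upper panel) and daf-28 (lower panel) on a log scale in the 15 classes with the highest means, ASI at the left. Points are the 4 ASI libraries, grey bars span the lowest to the highest library of each other class and black lines are class means; ASI ranks first for both genes, and its lowest library lies within the range of the next class (ASG for daf-7, AFD for daf-28).

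Over all 20427 genes tested, 2089 (10.2%) were higher in ASI than in the mean of the 52 other classes and 190 (0.93%) were lower (edgeR, adjusted p under 0.05). Against the 9 amphid classes 1178 genes (5.77%) were higher and 515 (2.52%) lower. The median log2 fold change was -0.05 against the 52 classes and -0.00 against the amphid classes. The mean over classes is taken on the log scale, so a class with no count pulls it down: 58.6% of the genes called higher against the 52 classes had at least 1 class without a count, and none of those called lower did. The number of lower calls against the 52 classes was 0.247 times that count without ASIr154. For the amphid classes it was 0.604, 0.398 and 0.575 times its count without ASIr152, ASIr154 and ASIr155.

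Insulin-like peptide genes were the secreted-signal group with the most calls. The worm genome has a large family of them, acting on the insulin receptor DAF-2 as agonists or antagonists. Of 39 genes found, 36 passed the low-count filter, which a gene could pass through ASI alone, and 15 were higher in ASI than in the mean of 52 classes (41.7%, against 10.2% of all genes) while 0 were lower, also at an unadjusted p under 0.05, by DESeq2 and by limma-voom. The median log2 fold change of the 36 was 1.21, and it was -0.62 where the other libraries were fitted as 1 group in place of the mean of classes. Against the amphid classes 11 were higher and 3 lower (30.6% higher, against 5.77% of all genes), with a median of -0.05, and without ASIr154 the count of higher genes was 8. ASI had the highest class mean for 5 of the 36 genes (13.9%, against 1.52% of all genes tested), which were daf-28, ins-5, ins-6, ins-9 and ins-37.

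daf-28, an agonist that promotes reproductive growth, had 9559, 24779, 207768 and 4178 CPM in ASIr152 to ASIr155. ASIr154 was far above the other 3 libraries, and daf-28 took 15.7% of its counts (187764 counts, 95% Wilson interval 15.66 to 15.79%), against 1.03%, 2.15% and 0.596% in ASIr152, ASIr153 and ASIr155. The class mean was 61571 ± 97854 CPM with ASIr154 and 12839 CPM without it, and ASI ranked first of the 53 classes either way. AFD followed with 4579 ± 3694 CPM (n = 5) and then ASER with 3185 ± 1251 CPM (n = 4). The highest AFD library, at 10450 CPM, exceeded 2 of the 4 ASI libraries. The log2 fold change against the 52 classes was 10.52 ± 0.31 (edgeR, adjusted p = 2.56e-71), and against the amphid classes it was 8.04 ± 0.52 (adjusted p = 1.19e-30).

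ins-5 and ins-6 separated ASI from every other class among the 53, which do not include ASJ, ASH and ADF. These neighbours on chromosome II (ins-5 at II:5997557-5999023 and ins-6 at II:6000436-6001009, both on the plus strand of WBcel235, 1413 bases apart) each had higher values in all 4 ASI libraries than in any library of another class. ins-5 had 342, 823, 963 and 146.4 CPM in ASI, and the highest other library, of AFD, had 90.3 CPM. ins-6, an agonist that also promotes exit from dauer, had 179.7, 690, 653 and 649.6 CPM, against 35.2 CPM in the highest other library, of AWA. Their log2 fold changes were 7.36 ± 0.25 and 7.07 ± 0.27 against the 52 classes (adjusted p = 7.46e-64 and 2.78e-56), and 6.01 ± 0.40 and 5.93 ± 0.43 against the amphid classes. Nearby on the same chromosome lie ins-4 and ins-3, for which ASI was not the highest class.

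ins-4, another agonist, had 257, 929.5, 1018 and 150 CPM in ASI (mean 588.5 ± 448.5 CPM), second to ASER with 1432 ± 638 CPM (n = 4). ins-3 had 141.04, 509, 192.5 and 156.9 CPM, rank 3 of 53. ins-26, ins-30 and ins-24 lie together on chromosome I and reached means of 838 ± 460.5, 1015 ± 1299 and 98.0 ± 73.5 CPM, with AWA highest for ins-26 and ins-24 and ASK for ins-30. All 5 were higher against the 52 classes, by log2 fold changes of 7.47, 6.57, 6.96, 5.39 and 3.47 for ins-4, ins-3, ins-26, ins-30 and ins-24 (edgeR, largest adjusted p = 7.98e-13). Against the amphid classes ins-24 was not called (1.51, adjusted p = 0.0767), and the call of ins-30 (2.41) was lost without ASIr154 (1.0, adjusted p = 0.41). ins-9 had 29.1, 86.6 and 167.1 CPM in ASIr152 to ASIr154 and lay between the last pair in ASIr155, with a mean of 108.7 ± 63.5 CPM that did not differ beyond the spread from that of AWA, 82.5 ± 63.01 CPM (n = 4 each). ins-37 had 0.231, 1.16, 25.5 and 2.78 CPM, so that its first rank rested on ASIr154, without which its calls were lost in both comparisons (log2 fold changes of 0.38 and 0.34, adjusted p = 1 and 0.947).

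The antagonists ins-1 and ins-18 were also among the higher genes. ins-1 had 194.5, 545, 841 and 243 CPM in ASI, rank 4 of 53 after AIN (1562 ± 653 CPM, n = 6), with log2 fold changes of 4.37 ± 0.30 and 4.04 ± 0.39. ins-18 had 54.3, 146.5, 68.6 and 30.9 CPM and a log2 fold change of 2.91 ± 0.35 against the 52 classes, while the call against the amphid classes (1.38, adjusted p = 0.0368) was lost without ASIr153 (0.85, adjusted p = 0.395) and without ASIr154 (1.43, adjusted p = 0.0756). In the other direction, ins-23, ins-14 and ins-15 were lower than in the amphid classes, by -4.14, -3.50 and -3.43 on the log2 scale, and had at most 8.31 CPM in any ASI library. The call of ins-15 was lost when any 1 ASI library was left out (adjusted p from 0.0784 to 0.13) and in DESeq2 (0.08). Per kilobase of exon, the ASI means were 80380 ± 127747 CPM for daf-28, 6749 ± 4602.5 CPM for daf-7, 1825 ± 1003 CPM for ins-26, 1044 ± 467 CPM for ins-6, 1006 ± 767 CPM for ins-4 and 657 ± 447 CPM for ins-5, and the last 3 did not differ beyond their spread.

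**Figure D2:**
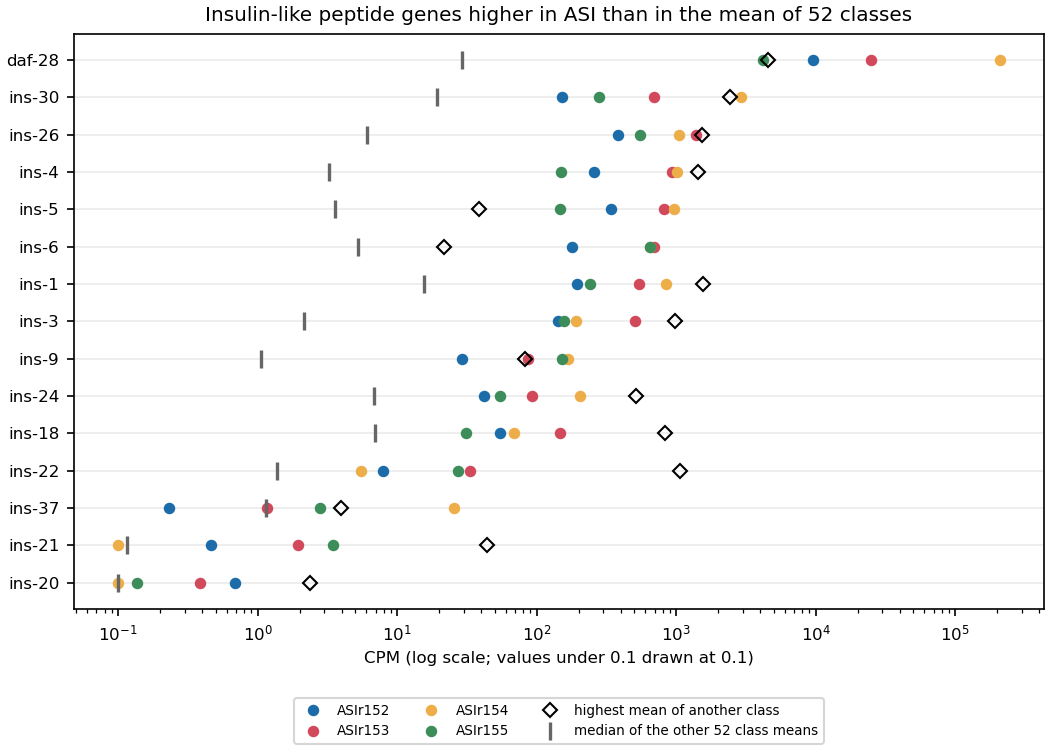
CPM on a log scale of the 15 insulin-like peptide genes higher in ASI than in the mean of the 52 other classes (edgeR adjusted p under 0.05). Points are the 4 ASI libraries, diamonds the highest mean of another class and grey ticks the median of the other class means. For ins-5 and ins-6 all 4 points lie right of the diamond, at 146.4 CPM or more. For ins-4, ins-3, ins-26, ins-30, ins-1, ins-24 and ins-18, among others, another class has a higher mean than ASI.

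Receptors and effectors of the same pathways had smaller fold changes than daf-7 and daf-28. Of 5 TGF-beta ligand genes daf-7 was the 1 called higher in either comparison, and dbl-1, the ligand that controls body size, had 31.7, 5.61, 35.4 and 19.9 CPM in ASI (log2 fold change 0.57, adjusted p = 0.476). All 3 receptor genes were called higher against the 52 classes, as were 10.2% of all genes. The fold changes of the type I receptor gene daf-1 (0.96) and the type II receptor gene daf-4 (0.78) were small and their calls were lost without ASIr154 (adjusted p = 0.941 and 0.201), as was that of daf-4 without ASIr153 (0.441). sma-6, a type I receptor gene, had 7.63, 40.8, 0 and 9.09 CPM, and its log2 fold change of 2.50 was 1.22 without ASIr153 (adjusted p = 0.114), and its call against the amphid classes (2.16) was then lost too (0.89, adjusted p = 0.362). Of 8 effector genes, 2 were higher against the 52 classes (10.2% of all genes), daf-8 (1.596) and the Sno/Ski-like daf-5 (1.66). The call of daf-8 was lost without ASIr153 (0.60, adjusted p = 0.335). None of the 8 was called against the amphid classes by edgeR, DESeq2 or limma-voom, and 2 had an unadjusted p under 0.05. The co-Smad gene daf-3 had 23.8, 84.3, 45.4 and 31.3 CPM in ASI and a median class mean of 40.6 CPM elsewhere.

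None of the 10 genes of the insulin receptor pathway was called in either comparison by edgeR. At an unadjusted p under 0.05, 3 were higher against the 52 classes and 5 lower against the amphid classes, DESeq2 and limma-voom each called 1 lower in the second comparison, and without ASIr152 edgeR called 3 higher in the first. Among them the receptor gene daf-2 had 193.5, 583.5, 284 and 478 CPM in ASI, with log2 fold changes of 0.48 and -0.65 against the 52 and the 9 classes, and the forkhead factor gene daf-16 had 220.6, 786, 455 and 324.5 CPM, with 0.49 and -0.79. Of 4 tested genes of the steroid hormone branch of dauer control, edgeR, DESeq2 and limma-voom called none, and 1 was higher at an unadjusted p under 0.05 in each comparison.

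A set of 35 genes (0.171% of genes tested) had at least 10 CPM in every ASI library, an edgeR call and every ASI library above every library of the other classes. The 25 with the largest log2 fold change against the 52 classes are described by name. Of the 35 genes, 12 lay on chromosome V, 11 on X, 5 on II, 3 on I, 3 on III and 1 on IV, and 32 are annotated as protein coding. These counts were not compared with the spread of all genes tested over the chromosomes. Without the level and call requirements 67 genes (0.328%) exceeded all other libraries. The highest values were those of Y60C6A.1, at V:4783613-4784535 on the plus strand, with 915, 3381.5, 2560.5 and 1102 CPM in ASI. The highest other class mean was 8.06 ± 4.15 CPM in ASG (n = 4), so that the ASI mean was 247 times as high, and the lowest ASI library exceeded the highest other library 68.6-fold. Its log2 fold change was 10.46 ± 0.24 against the 52 classes (adjusted p = 7.45e-87) and between 9.84 and 10.70 under the alternatives run.

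F38B2.2, on the X chromosome (X:11278401-11279376, minus strand), followed with 781.5, 2222, 1453 and 696 CPM in ASI, against 102 ± 39.9 CPM in ASK (n = 4), the next class. K03H6.4 on chromosome IV (IV:1517969-1521324, minus strand) had the smallest SD relative to its mean among the 25, with 154.2, 370, 353 and 309 CPM in ASI and at most 5.21 CPM in any other library. T13G4.7 had the largest fitted log2 fold change of all genes in this set, 10.76 ± 0.30, with 82.1, 248, 332 and 117.5 CPM in ASI and at most 1.77 CPM elsewhere. It lies 3267 bases from C46H3.1 on the X chromosome, which had 48.6, 200.2, 55.3 and 45.8 CPM in ASI and at most 2.93 CPM elsewhere. Classes without a count are frequent for these genes (11 of 52 for T13G4.7), so the size of a fitted fold change there depends on how such classes are handled.

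Other members also lay beside each other. F13A2.1, F13A2.2, F13A2.10 and F13A2.9 occupy V:4381620-4387502 on the minus strand, at distances of 114, 1085 and 535 bases. F13A2.2 had 110, 617, 308 and 73.9 CPM in ASI and the other 3 had between 13.4 and 154.4 CPM. For all 4 genes the next class was AVH, an interneuron class, in which F13A2.2 had 8.66, 55.5, 12.96 and 23.8 CPM, so the lowest ASI library and the highest AVH library were close. C03H5.9 and C03H5.7 on chromosome II overlap, and their counts (76.8 to 397 and 127 to 762 CPM in ASI) cannot be separated with certainty. On chromosome III, Y55B1BR.8 (122.8, 331, 101 and 61.4 CPM) lies 345 bases from affl-1, which had 53.4, 196.4, 101 and 19.7 CPM in ASI, and 10.4 CPM in the highest library of another class.

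The remaining named genes of this set, F33E2.10, W02D9.9 and F56C3.4, the pseudogenes WBGene00008325 and WBGene00010494, F55E10.1 and the long noncoding RNA gene linc-115, had lowest ASI values between 12.01 and 92.4 CPM. Highest values in another library ran from 0.643 CPM for F55E10.1 to 14.2 CPM for F33E2.10. The edgeR calls of WBGene00008325, F55E10.1, linc-115 and of the receptor genes srx-120 and srg-36 were not made by DESeq2 (adjusted p = 0.291, 0.803, 0.229, 0.138 and 0.117). Against the amphid classes alone, 41 genes (0.201%) met the same requirements, and the 10 with the largest log2 fold change beyond the 25 were str-204, srm-5 and srm-6 (243 bases apart on chromosome V), C14E2.7, M151.7, C06A5.12, affl-1, gad-2, ins-5 and ins-6. gad-2 had 29.8, 169, 113 and 32.1 CPM in ASI, against at most 13.4 CPM in any library of the other amphid classes, and it shares sequence positions with C10A4.13.

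**Figure D3:**
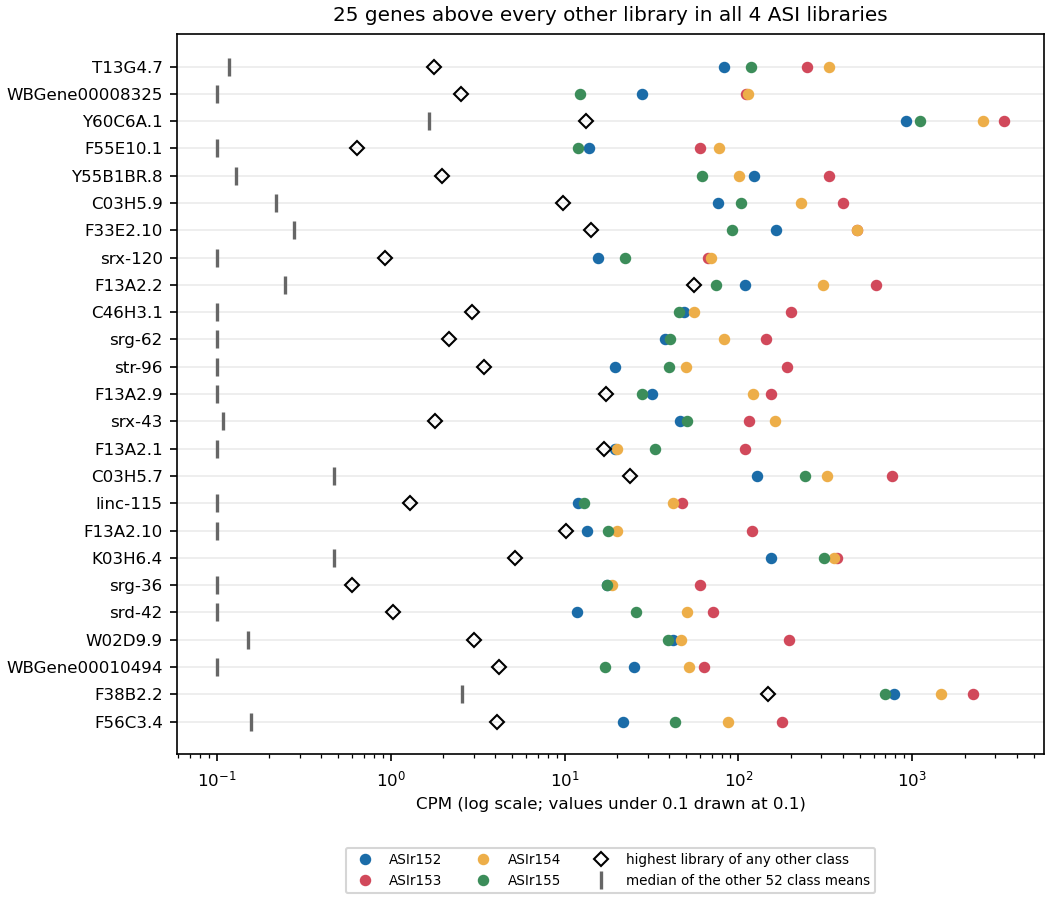
CPM on a log scale of the 25 genes with the largest log2 fold change among those above every other library in all 4 ASI libraries. Points are the 4 ASI libraries, diamonds the highest library of any other class and grey ticks the median of the other 52 class means, with values under 0.1 CPM drawn at 0.1; ASIr153 is often the rightmost point and ASIr152 or ASIr155 the leftmost.

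Chemoreceptor genes, the large families of G protein-coupled receptors through which the amphid neurons sense odours, tastes and pheromones, were called higher in ASI more often than genes as a whole by edgeR and limma-voom, and at about the rate of all genes by DESeq2. Of 1294 found, 836 passed the low-count filter, which a gene could pass through ASI alone. Classes without a count numbered 28 of 52 for srx-120, 12 for srx-43 and 0 for srd-70. Of the 836, 239 were higher than in the mean of 52 classes (28.6%, against 10.2% of all genes) and 1 was lower. The amphid comparison had 14.1% of them higher (against 5.77% of all genes) and 5 lower. ASI had the highest class mean for 59 of the 836 (7.06%, against 1.52% of all genes), and in 20 all ASI libraries exceeded all other libraries (2.39%, against 0.328%). The list's median log2 fold changes were 0.67 and -0.22, and the first was -0.17 without ASIr155 and -2.29 where the other libraries were fitted as 1 group. DESeq2 called 8.25% and 6.10% of the tested members higher in the 2 comparisons, close to its 6.88% and 5.07% of all genes. limma-voom called 12.9% and 10.8%, against 5.10% and 2.76% of all genes. Without ASIr155, the deepest library, edgeR called 17.1% and 11.4%, against 8.57% and 5.05% of all genes.

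Levels were low throughout: 49 of the 1294 genes had an ASI mean of at least 10 CPM, and the highest was srx-43 at 93.4 ± 55.3 CPM. By family, 17 of 26 tested sra genes (65.4%), 23 of 53 srg genes (43.4%) and 40.4% of the str genes were higher against the 52 classes. So were 8 of 17 srab genes and 9 of 21 sru genes. The counts against the amphid classes were 14, 19 and 25 for sra, srg and str, and 6 and 4 for srab and sru. In that comparison 12 of 59 srx genes and 7 of 34 srw genes were higher too. Over all genes, 10.2% were higher against the 52 classes and 5.77% against the amphid classes. In the srh family 24.8% were higher against the 52 classes and 3.18% against the amphid classes, and in srz 15 of 56 and 0. The srg family held 13 of the 59 genes for which ASI was the highest class, and str held 15. srg-62 had 37.9, 143.4, 82.99 and 40.5 CPM in ASI and at most 2.18 CPM in any other library. str-96 had 19.4, 190.2, 49.8 and 39.8 CPM and at most 3.46 CPM elsewhere, srd-42 had 11.8, 71.7, 50.9 and 25.8 CPM and at most 1.04 CPM, and srx-120 had 15.5, 66.9, 69.7 and 22.4 CPM and at most 0.933 CPM. In each of them ASIr152 was the lowest library. Genes shared with another class included srab-17, with 30.98, 162.4, 27.7 and 24.2 CPM in ASI and a mean of 36.2 CPM in AWA, and srd-70, with 21.3, 71.1, 143.85 and 57.9 CPM in ASI and 10.1 CPM in AFD.

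Of 9 genes listed as ascaroside receptors, 8 passed the same low-count filter and 5 were higher than in the 52 classes (62.5%, against 10.2% of all genes). srx-43, a receptor for an indole ascaroside, had 46.2, 115.2, 161.55 and 50.5 CPM in ASI and at most 1.80 CPM in any other library (log2 fold change 9.62 ± 0.33, adjusted p = 5.90e-56). srg-36 and srg-37 encode receptors for a dauer-inducing ascaroside and overlap on the X chromosome (X:14229668-14234466 and X:14233944-14235032, both on the minus strand), so reads of the shared part are uncertain. srg-36 had 17.6, 60.3, 18.8 and 17.6 CPM in ASI and at most 0.596 CPM elsewhere, and srg-37 had 1.39, 14.9, 0 and 3.46 CPM, with the value of 0 in the library whose detection limit was 3.32 CPM. DESeq2 called neither (adjusted p = 0.117 and 0.448). srx-44, next to srx-43 on chromosome V, had 3.01, 6.57, 0 and 1.63 CPM in ASI and was highest in ADL at 29.9 ± 20.02 CPM (n = 4). daf-38 had 34.2, 72.9, 114 and 37.6 CPM, rank 11 of 53 after PVP (1026 CPM) and others, and its call (1.53) was lost without ASIr154 (1.12, adjusted p = 0.138). daf-37, its partner in pheromone sensing, was not called (0.37, adjusted p = 0.774). In the amphid comparison 4 of the 8, all but daf-38 of these, were higher (50%, against 5.77% of all genes).

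**Figure D4:**
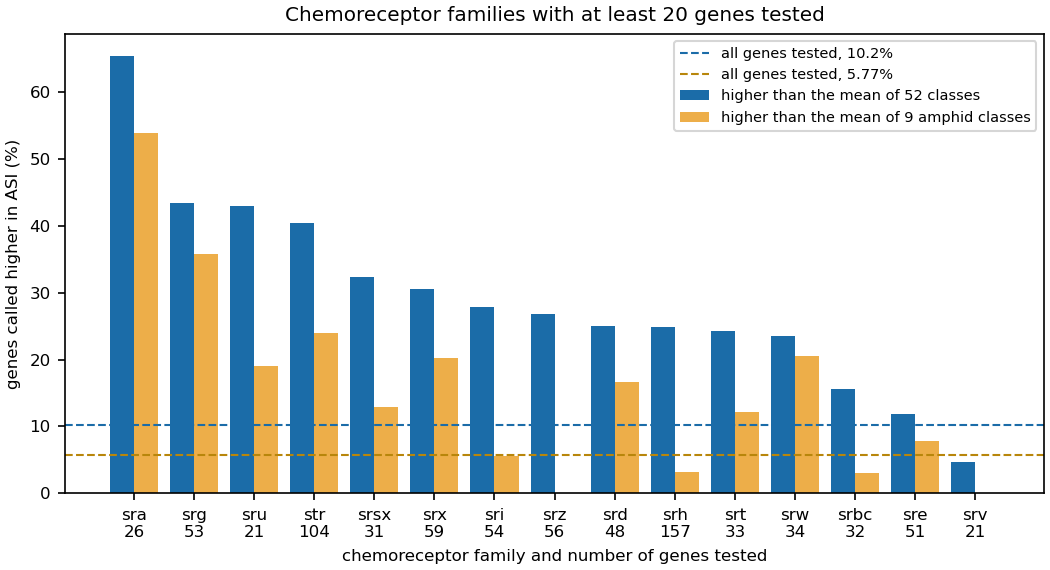
Percentage of tested genes called higher in ASI (edgeR adjusted p under 0.05) in each chemoreceptor family with at least 20 genes tested, against the mean of 52 classes (blue) and of 9 amphid classes (orange); dashed lines mark the percentages over all genes tested, 10.2% and 5.77%. The sra, srg and str families, among others, lie above both lines, and srh and srz lie above the first and below the second.

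Genes that carry the signal from receptor to membrane gave more calls against the 52 classes than against the amphid classes. Of 26 G protein subunit genes 12 were higher against the 52 classes and 6 against the amphid classes (46.2% and 23.1%, against 10.2% and 5.77% of all genes). There gpa-13 was lower (-2.37), a call lost without ASIr152, ASIr153 or ASIr154 (adjusted p = 0.147, 0.116 and 0.139). The amphid calls were gpa-4 and, at log2 fold changes of 2.73, 2.52, 2.14, 1.83 and 1.68, gpa-14, gpa-10, gpa-1, gpa-15 and gpa-2. Without ASIr153 only 2 of the 6 calls were made, since the log2 fold changes of gpa-14, gpa-10, gpa-15 and gpa-2 dropped to 1.36, 1.11, 0.36 and 0.60 (adjusted p = 0.129, 0.342, 0.856 and 0.622). gpa-1 had 55.0, 130.85, 50.9 and 36.2 CPM in ASI, rank 4 of 53 after AIM and others. gpa-3, known from dauer pheromone signalling, had 22.4, 163.5, 29.9 and 43.3 CPM and was higher against the 52 classes (3.60) but not called against the amphid classes (0.91, adjusted p = 0.304).

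Of 33 guanylyl cyclase genes 8 were higher against the 52 classes (24.2%, against 10.2% of all genes) and 2 against the amphid classes (6.06%, near the 5.77% of all genes). gcy-27 had 7.86, 66.7, 9.96 and 10.6 CPM in ASI, second to ASK (78.3 ± 41.4 CPM, n = 4), and log2 fold changes of 6.68 ± 0.34 and 5.45 ± 0.51. gcy-37 was the other, with 13.6, 25.7, 0 and 5.90 CPM, and both its calls (2.27 and 2.00) were lost without ASIr153 (1.53 and 1.28, adjusted p = 0.058 and 0.188). gcy-15, a gene highest in ASG at 4338 CPM, had at most 17.98 CPM in ASI, and its call against the 52 classes (1.49) was lost without ASIr152, ASIr153 or ASIr155 (adjusted p = 0.0521, 0.289 and 0.206). daf-11 and odr-1, receptor cyclases used by several amphid neurons, averaged 18.3 ± 19.9 and 16.2 ± 13.2 CPM and were higher against the 52 classes by 3.07 and 3.81, without a call against the amphid classes.

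Among 13 genes of cGMP-gated channels, phosphodiesterases and cGMP-dependent kinases, 7 were higher against the 52 classes (53.8%, against 10.2% of all genes), and 2 were higher and 2 lower against the amphid classes (15.4% each, against 5.77% and 2.52%). The channel subunit gene cng-2 had 92.9, 224.02, 199.2 and 47.1 CPM in ASI, rank 3 of 53, with ASG highest (376 ± 171.1 CPM, n = 4). Its log2 fold changes were 6.16 ± 0.29 and 2.40 ± 0.45. Each call was made under 10 of the 11 alternatives run, with log2 fold changes down to 2.83 and 0.52. The better known channel genes tax-4 and tax-2 had 9.25, 60.5, 5.53 and 11.7 CPM and 8.32, 44.7, 0 and 11.6 CPM, were higher against the 52 classes (3.60 and 3.42) and were not called against the amphid classes (-0.88 and -0.08). The kinase gene pkg-2 was higher in both (1.37 and 1.38) with all 4 libraries and in neither without ASIr153 (0.78 and 0.81, adjusted p = 0.118 and 0.123). pde-1 was lower than in the amphid classes (-2.95), with at most 23.8 CPM in ASI. The transient receptor potential channel gene osm-9 had 8.79, 10.05, 0 and 14.2 CPM and was lower than in the amphid classes (-1.75), a call not made without ASIr152 or ASIr154 (adjusted p = 0.0543 and 0.126).

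Ciliary transport genes followed the same division. Of 43 tested, 36 were higher against the 52 classes, most of which lack cilia (83.7%, against 10.2% of all genes). Against the amphid classes 0 were higher (5.77% of all genes) and 1 lower (2.33%, near the 2.52% of all genes). DESeq2 and limma-voom called none higher there, nor was any higher at an unadjusted p under 0.05. The medians of the list were 2.47 and -0.37. bbs-1, of the BBSome, had 36.8, 157.3, 121.7 and 37.4 CPM in ASI and osm-6, of the intraflagellar transport complex, had 21.04, 114, 0 and 17.3 CPM, with log2 fold changes of 4.06 and 3.60 against the 52 classes and 0.05 and 0.40 against the amphid classes (adjusted p = 1 and 0.813). Without ASIr153 the count of higher genes was 21 of 43. daf-19, the factor that activates ciliary genes, was the 1 lower gene (-1.42), and that call was lost without ASIr152, ASIr154 or ASIr155 (adjusted p = 0.121, 0.139 and 0.113).

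**Figure D5:**
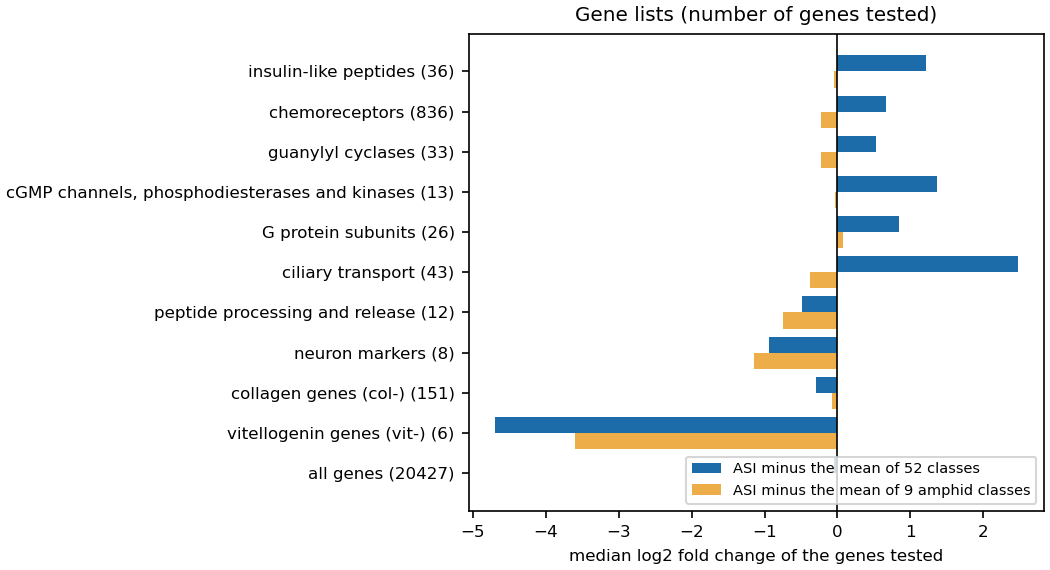
Median log2 fold change of the tested genes of each list (number of genes in parentheses), for ASI minus the mean of 52 classes (blue) and minus the mean of 9 amphid classes (orange). Ciliary transport genes have a median of 2.47 in the first comparison and -0.37 in the second, and all genes have medians of -0.05 and -0.00.

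Of 70 neuropeptide-like protein genes, 8 were higher (11.4%, against 10.2% of all genes) and 1 lower against the 52 classes. In the amphid comparison 5 were higher (7.14%, against 5.77% of all genes) and 7 lower (10%, against 2.52%). nlp-14, of the orcokinin family, had 109.1, 342.5, 2699 and 522 CPM in ASI, rank 3 of 53 with PVQ highest, with log2 fold changes of 3.55 ± 0.31 and 3.33 ± 0.38. As for daf-28, ASIr154 was the highest library. nlp-1 and nlp-67 were higher in both comparisons (2.73 and 1.27 for nlp-1, 2.64 and 2.27 for nlp-67), but the amphid call of nlp-1 was lost without ASIr153 (adjusted p = 0.319) and that of nlp-67 without ASIr154 (adjusted p = 0.052). nlp-3 had 52.7, 198.9, 150.5 and 149.8 CPM in ASI, against 8317 CPM in ASER, and was higher than in the 52 classes (1.66) and lower than in the amphid classes (-2.37). Both calls depended on single libraries, with an adjusted p of 0.0969 without ASIr153 in the first and of 0.12, 0.0781 and 0.0735 without ASIr152, ASIr154 and ASIr155 in the second.

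Of 30 FMRFamide-like peptide genes, 2 were higher and 3 lower against the amphid classes (6.67% and 10%, against 5.77% and 2.52% of all genes). Against the 52 classes 1 was lower, and flp-7 was the 1 higher gene (3.33%, against 10.2% of all genes), with 61.3, 141.1, 184.8 and 219.3 CPM in ASI and log2 fold changes of 2.64 ± 0.33 and 3.13 ± 0.37. flp-16 had 59.4, 15.7, 8.85 and 82.8 CPM and was lower in both (-1.78 and -3.25), the first of which was lost without ASIr153 or ASIr154 (adjusted p = 0.161 and 0.194). flp-6 was lower than in the amphid classes (-2.93), where AFD had the highest mean at 6734 CPM. Of 12 genes of peptide processing and release, 0 were higher and 1 lower (pgal-1) against the 52 classes (10.2% and 0.93% of all genes). Against the amphid classes 3 were lower (25%, against 2.52% of all genes), which were pgal-1, egl-21 (-1.61) and sbt-1 (-1.81). The calls of egl-21 and sbt-1 were made under 5 and 6 of the 11 alternatives run, which include omission of each ASI library. The medians of the list were -0.48 and -0.74. pgal-1, which completes peptide amidation, had 164.4, 276, 85.2 and 290.0 CPM in ASI, and its first call (-1.597) was lost without ASIr152 or ASIr154 (adjusted p = 0.0946 and 0.161). The proprotein convertase gene egl-3 had 581, 1388, 1142 and 945 CPM in ASI and was not called (-0.97, adjusted p = 0.205). The neuron markers include the peptide processing genes egl-3, egl-21 and sbt-1, so the low neuron marker sum of ASI given above shares genes with these medians. The part of that sum in the medians was not tested.

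Of 15 genes of transmitter synthesis and transport, 1 was higher against the 52 classes (6.67%, against 10.2% of all genes), and 1 was higher and 1 lower against the amphid classes (6.67% each, against 5.77% and 2.52%). eat-4, the vesicular glutamate transporter gene, had 16.4, 4.83, 1.11 and 18.4 CPM in ASI and was lower than in the amphid classes (-3.10, adjusted p = 5.57e-05), several of which are glutamatergic. cat-1, the vesicular monoamine transporter gene, had 15.7, 42.7, 3.32 and 27.7 CPM and was higher in both (1.31 and 2.08), while its highest class, RIM, had 741 ± 361 CPM (n = 4). The first of these calls was lost without ASIr153 or ASIr155 (adjusted p = 0.35 and 0.0984) and by DESeq2 (0.0605).

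Among 30 regulators of sensory identity and dauer formation, 6 were higher and 1 lower against the 52 classes (20% and 3.33%, against 10.2% and 0.93% of all genes), and 4 were higher and 2 lower against the amphid classes (13.3% and 6.67%, against 5.77% and 2.52%). skn-1, the gene of a stress-response factor whose neuronal form is known to act in ASI in the response to dietary restriction, had its highest class mean in ASI. It reached 587, 3799, 4359 and 1433 CPM, a mean of 2544.5 ± 1820 CPM, against 505 ± 243.5 CPM in DVC (n = 4) and a median class mean of 211.4 CPM. The lowest ASI library lay below the highest library of any other class, 819.9 CPM in DVC, and the other 3 lay above it. The log2 fold changes were 3.56 ± 0.17 and 3.27 ± 0.21 (adjusted p = 1.65e-45 and 1.06e-30), and they lay between 3.11 and 3.89 and between 2.84 and 3.60 under the alternatives run. The gene shares positions with clec-178 and csn-5, and how reads there were assigned is not given in the sources used here. The counts are per gene, so they do not separate the neuronal form from other forms.

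unc-3, which encodes a COE-type factor known both in cholinergic motor neurons and in ASI, had 69.8, 251, 128 and 117 CPM in ASI. The mean of 141.4 ± 77.1 CPM did not differ beyond the spread from that of the motor neurons VB, 148.9 ± 107 CPM (n = 4 each). Its log2 fold change was 4.68 ± 0.23 against the 52 classes and 5.48 ± 0.31 against the amphid classes (adjusted p = 2.01e-43 and 4.43e-36). ttx-3, a LIM homeobox gene of the AIY interneuron, was higher in both comparisons (3.57 and 4.06) at 6.94, 63.98, 18.8 and 9.09 CPM in ASI, against 4049 ± 1075 CPM in AIY (n = 3). The homeobox gene ceh-37 had 14.8, 38.3, 0 and 12.1 CPM and was higher against the 52 classes (2.28), with ASG highest at 150 CPM. osm-10, a cytosolic protein gene of sensory neurons that shares positions with zmp-6, had its highest mean in ASI, 185.9 ± 203.3 CPM, which did not differ beyond the spread from that of PHA, 122.3 ± 80.95 CPM (n = 4 each).

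The most negative fold changes were those of cuticle collagen and yolk protein genes, among them the hypodermis marker col-19 and the intestine marker vit-5. Of the 190 called lower against the 52 classes, most (0.72% of all genes tested) also had a median class mean of at least 10 CPM and lay below it in every ASI library. The 10 most negative were the cuticle collagen genes col-119, col-19, col-178, col-181, col-81, col-129, col-20 and col-106 and the yolk protein genes vit-5 and vit-1. Of these 10 calls 7 were lost when 1 ASI library was left out: col-19, col-119 and col-81 without ASIr153 (adjusted p = 0.0503, 0.0582 and 0.0534), col-119, col-106 and vit-1 without ASIr155 (0.0782, 0.0539 and 0.0567), col-20 without ASIr152 (0.0537), and vit-5 without any 1 of the 4 (0.0703 to 0.113). Those of col-178, col-181 and col-129 were made without any 1 library. The amphid comparison called the 8 collagen genes except col-119, each of them lost without at least 3 of the 4 libraries (adjusted p from 0.052 to 0.109), and neither yolk protein gene. The set that lay below the median class held 19 col- genes and 4 vit- genes, families chosen after the values were seen. col-19 had 0.462, 0.193, 1.11 and 0.543 CPM in ASI, against a median class mean of 41.8 CPM and 694 ± 598 CPM in NSM (n = 3), a log2 fold change of -5.98 ± 1.73 (adjusted p = 0.00893). Among all tested col- genes 20 were lower (13.2%, against 0.93% of all genes) and 6 higher (3.97%, against 10.2%), with a median of -0.29, and the count of lower genes was 10, 6, 14 and 12 without ASIr152 to ASIr155. vit-5 had at most 0.966 CPM in ASI and a mean of 2276 ± 2217 CPM in HSN (n = 3). limma-voom called none of these 10 genes (adjusted p from 0.0522 to 0.256). Of 6 intestine markers, vit-5 included, 3 were lower against the 52 classes and 0 higher, with a median of -2.66. Of 5 hypodermis markers, col-19 included, 2 were lower and 1 higher, with a median of -0.00 (0.93% of all genes were lower and 10.2% higher). The source of these transcripts in libraries of other classes was not tested.

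Of 9 genes whose sequences are used in worm transgenes, rol-6 was higher and pha-1 lower (-1.81) against the 52 classes. Against the amphid classes rol-6 and unc-54 were higher and lin-15A and lin-15B lower (-1.86 and -1.89). The medians were -0.59 and -0.64. Over all genes, 10.2% were higher and 0.93% lower in the first comparison, and 5.77% and 2.52% in the second. rol-6, a collagen gene often carried on transgenes as a marker, had 1629.6, 1734.5, 1461 and 168 CPM in ASI, against a median class mean of 61.1 CPM, and ranked second after IL1 (3702 ± 2122 CPM, n = 3), the class whose library was nearest to ASIr152. unc-54, a muscle myosin gene whose end is used in reporter transgenes, had 4257, 9936, 28693 and 1518 CPM, against a median class mean of 7183 CPM, and was not called against the 52 classes (0.31, adjusted p = 0.787). ASIr155 was the lowest ASI library for both, and the call of unc-54 against the amphid classes (1.55) was lost without ASIr154 (0.49, adjusted p = 0.622). Whether these counts come from the genes or from a transgene was not tested.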

How the data were processed

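Total RNA of sorted neurons was collected in Trizol and made into libraries with the SoLo Ovation kit, which the labels name for 180 libraries of 46 classes (ASI included) and leave out for 25 libraries of 7 classes. The authors deposited a table of raw counts per gene of WormBase release WS289 (46927 genes). The submitters' processing notes name STAR 2.7.7a, UMI-tools 1.1.4, Subread 2.0.3 and featureCounts, without their settings. The use of strand in counting is not given in the sources used here, so counts of overlapping genes are uncertain. Columns were matched to libraries by name, and 14 per-sample columns that match no library were not used. Symbols and coordinates came from Ensembl release 115 (WBcel235), which named 44113 identifiers (94.0%).

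Library sizes were scaled by TMM, low-count genes were removed with filterByExpr by class, and 20427 genes were fitted over all 53 classes with edgeR 4.0.16 (R 4.3.3), whose quasi-likelihood F-test gave p-values adjusted by Benjamini-Hochberg over all genes. ASI was contrasted with the unweighted mean of the other 52 classes and with that of 9 amphid classes; these comparisons share the ASI libraries and 37 others. CPM used TMM-scaled library sizes, SEs were derived from the fold change and its F statistic, and calls needed an adjusted p under 0.05. Members and gene lists were chosen with earlier results of these data known. Genes of every list could pass the low-count filter through ASI alone. Genes outside the lists were named by rule: the 25 with the largest fold change above every other library, the 10 most negative, and the 10 next against the amphid classes. Alternatives were DESeq2 1.42.0, limma-voom (limma 3.58.1), RLE scaling, no filter, a reference of 1 group, only libraries with the kit in their description, removal of ribosomal RNA and omission of each ASI library.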

Additional observations from a re-analysis of the deposited data

Results flagged for a closer look

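In groups of 4 values, 1 library can stand apart from the other 3. Dixon's test at the 95% level was applied to the values of each named gene and of library measures in ASI. Of these, 23 (16.8%) stood apart, 17 of them in ASIr153, 4 in ASIr154, 1 in ASIr152 and 1 in ASIr155. Chance alone gives about 1 in 20 for independent values of normal spread. The genes share the same 4 libraries and were not tested for normal spread, so the 16.8% cannot be judged against that rate.

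ASIr153, the library with the highest neuron marker sum, was far above the other 3 for genes of several groups. Among genes highest in ASI these were C46H3.1 (200.2 CPM), F13A2.1 (109.6 CPM), F13A2.10 (119.5 CPM), W02D9.9 (194.4 CPM) and srm-5 (48.1 CPM). Among receptors they were srg-36 (60.3 CPM) and srab-17 (162.4 CPM). The G protein genes were gpa-4 (528.6 CPM), gpa-2 (193.3 CPM) and gpa-3 (163.5 CPM), and the cGMP genes were gcy-27 (66.7 CPM), tax-4 (60.5 CPM) and pkg-2 (275.8 CPM). The others were the peptide genes ins-3 (509.3 CPM) and nlp-1 (355.5 CPM), the Smad gene daf-14 (106.9 CPM) and the ciliary regulator daf-19 (130.3 CPM).

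ASIr154, the library with the fewest genes detected, was far above the other 3 for 3 peptide genes, daf-28 (207768 CPM), nlp-14 (2698.8 CPM) and ins-37 (25.5 CPM), and below them in its correlation with its nearest library (r = 0.791). ASIr152 was low for ins-6 (179.7 CPM). ASIr155 was the 1 library with a count of srh-220 (0.271 CPM). The part of library complexity in these values was not tested.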

How the results depend on the processing

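RLE scaling and removal of ribosomal RNA kept all 4 counts of calls within 1.5 times the reported ones. Against the 52 classes, the number of higher calls was 1.509 times the reported 2089 with no filter on low counts, 0.499 times with limma-voom and 0.121 times with the reference libraries as 1 group. The number of lower calls was 2 times the reported 190 with DESeq2, 1.621 times with only libraries whose description names the kit and 0.026 times with the reference as 1 group. Against the amphid classes, the higher calls were 0.479 times the reported 1178 with limma-voom and 0.141 times with the reference as 1 group, and the lower calls were 0.666 times the reported 515 with no filter and 0.027 times with the reference as 1 group. Leaving out each ASI library gave 0.779 to 0.937 times the higher and 0.247 to 1.332 times the lower calls in the first comparison, and 0.773 to 0.919 and 0.398 to 1.219 times in the second. DESeq2 called 61.8% and limma-voom 49.6% of the 2089 genes higher. The reference as 1 group weights classes by their libraries and averages counts rather than logs, and it moved the median log2 fold change of all genes to -0.51 and -0.33. The sign of srh-220 against the 52 classes turned under it (-2.03) and without ASIr155 (-1.20), while leaving out another library gave up to 1.82. Under it alone, other named calls changed sign: against the 52 classes daf-38 (-0.14), ttx-3 (-2.06), cat-1 (-1.10), nlp-3 (-1.70), nlp-57 (-0.20), gcy-21 (-2.20), gcy-15 (-3.13) and ceh-36 (-1.84), and against the amphid classes str-3 (-1.82), ins-18 (-1.15), srx-44 (-0.23), gpa-15 (-0.47), nlp-1 (-0.17) and nlp-57 (-1.08). Most higher calls were lost with the reference as 1 group, which made 12.1% of those reported against the 52 classes and 14.1% against the amphid classes. The lost calls included that of gpa-4 against the amphid classes (adjusted p = 0.289). Among calls made under 10 of the 11 alternatives were those of ins-1, ins-3 and cng-2 in both comparisons. So were those of ins-4, ins-26 and gcy-27 against the amphid classes and of bbs-1 against the 52 classes. Calls of daf-7, daf-28, ins-5, ins-6, skn-1, Y60C6A.1 and F38B2.2 were made under all 11 alternatives in both comparisons. Apart from what is given in this paragraph and beside the results, the cause of these shifts was not tested. No paired analysis was possible because library numbers are not shared between classes. Genes at a few CPM could not be measured in ASIr154, where a count of 0 allows 3.32 CPM.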
